A study of Mus musculus with 8 samples.

Results

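Class IIa histone deacetylases and the MEF2 transcription factors they repress were followed as 9 genes: the deacetylases Hdac4, Hdac5, Hdac7 and Hdac9, the factors Mef2a, Mef2c and Mef2d, and the corepressor partners Ncor1 and Hdac3. The genes were chosen by symbol. All 9 were found among the 37315 gene rows of the count files, and all 9 were among the 14788 genes with enough counts to test. The RNA came from dissected hippocampal CA1 of 8 Cas9-expressing mice. In 4 mice (Control) an adeno-associated virus (AAV) with a control guide RNA had been injected stereotaxically, and in 4 mice (KO) the virus carried a guide against SIK3, with 2 males and 2 females in each group. Every animal thus carried Cas9 and received a virus with a guide. Mouse age, the strain background, the promoter that drives Cas9, the AAV serotype, the guide's target site and the time after injection are not stated in the sources used here. Each library is 1 mouse, numbered within its group in listing order, so that numbers pair no animals: Control 1 and 3 and KO 1 and 2 are males, and Control 2 and 4 and KO 3 and 4 are females.

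Salt-inducible kinases, of which SIK3 is a member, phosphorylate class IIa deacetylases. The phosphorylated proteins are held in the cytoplasm by 14-3-3 proteins, and the dephosphorylated proteins enter the nucleus, where they bind MEF2 on its target genes. Class IIa enzymes have little deacetylase activity of their own and act through the complex of NCOR1 with HDAC3. In the hippocampus MEF2 factors are known for activity-dependent control of excitatory synapse number, and HDAC4 and HDAC5 for limiting the transcription that accompanies memory. This control works on phosphorylation and location of the proteins, which RNA counts do not measure. The counts address whether the transcripts of the repressors, the factors and their partners differed between the guides.

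Libraries held 13561662 to 18619928 counts, with the males at 13561662 to 15165413 and the females at 16743701 to 18619928, so sex and depth cannot be told apart. The summed level of 8 CA1 pyramidal markers ran from 455 to 516 CPM (counts scaled to the depth of each library, with TMM factors) in controls, and the KO range of 478 to 511 CPM lay within it. Markers of other cells were read too: 9 dentate granule markers summed to 1035 to 1212 CPM in controls and to 1020 to 1158 CPM with the SIK3 guide. Such a sum does not by itself show that dentate tissue was included. Oligodendrocyte markers varied more, from 3086 to 5133 CPM and from 2802 to 4438 CPM. Microglia markers were at 279 to 320 CPM in controls and at 306 to 322 CPM in 3 KO libraries, and at 394 CPM in KO 4. Gene by gene, the log2 fold change of KO minus Control was below 0 for all 8 oligodendrocyte markers (median -0.17). It was above 0 for all 9 microglia markers (0.27), all 7 astrocyte markers (0.031) and 8 of 9 endothelial and pericyte markers (0.18). It was also above 0 for all 6 meningeal fibroblast markers (0.22). Of 10 interneuron markers 2 were above 0 and 8 below. Within females and within males the median was 0.62 and -0.049 for microglia markers. For oligodendrocyte markers it was -0.026 and -0.41. Of the CA1 pyramidal markers 5 were above 0 and 3 below, and of the dentate markers 3 and 6. These lists were not tested as sets. In none of the marker lists was a gene at 0 in all libraries. In bulk tissue fewer cells of a type and less RNA per cell cannot be told apart.

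Promoter sequence was read first for what the genes share beyond their names. RefSeq promoter windows on GRCm38.p6, from 250 bases before to 50 bases after a transcript start, were matched for 8 of the 9 genes, which gave 15 windows. The site that MEF2 factors bind has the letters CTA, then 4 bases that are each A or T, then TAG, and reads the same on both strands. It was in 2 of the 15 windows, those of Mef2a and Hdac5, and in 0.557% of all 32851 windows. With any 4 bases in the middle, a looser search, the letters were in 3 of the 15 windows, now with Hdac9, and in 3.69% of all. The letters TGACGTCA, the full site of the cAMP-responsive factor CREB and also the same on both strands, were in 0 of the 15 windows and in 1.79% of all. The sequences of Mef2a and Hdac5 are printed because a factor gene and a repressor gene hold the MEF2-type letters next to a start, and that of Hdac9 to show the looser match. Capitals mark the match, and each run has 100 bases before it and 10 after it, 5′ to 3′ on the gene's own strand.
Mef2a, chr7:67372841-67372960, minus strand: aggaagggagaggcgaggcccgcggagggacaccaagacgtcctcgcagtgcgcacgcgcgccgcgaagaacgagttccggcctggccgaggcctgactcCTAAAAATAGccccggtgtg
Hdac5, chr11:102230173-102230292, minus strand: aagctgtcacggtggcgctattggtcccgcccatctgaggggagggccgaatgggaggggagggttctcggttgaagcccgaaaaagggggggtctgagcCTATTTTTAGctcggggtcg
Hdac9, chr12:34528902-34529021, minus strand: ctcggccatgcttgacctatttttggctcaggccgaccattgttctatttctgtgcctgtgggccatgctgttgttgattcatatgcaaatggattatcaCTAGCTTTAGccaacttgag
The match begins 2 bases before the start in Mef2a, 20 bases before it in Hdac5 and 32 bases before it in Hdac9, where it belongs to a start inside the gene. In Hdac9 the 4 middle letters are not all A or T. A match of letters is a description of the window and not evidence that a factor binds there.

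Sik3 itself was read as a check of the labels. It was at 165, 148, 139 and 137 CPM in Control 1 to 4 and at 75.3, 88.2, 82.9 and 98.4 CPM in KO 1 to 4. The groups did not overlap, and Sik3 fell in KO mice by 0.77 ± 0.09 on the log2 scale (SE; edgeR quasi-likelihood test with Benjamini-Hochberg adjustment, adjusted p = 0.0202). Reads of Sik3 remained in every KO library. The edgeR adjusted p rose above 0.05, to between 0.0865 and 0.242, when Control 2, Control 3, KO 2 or KO 3 was left out, and to 0.0779 when the fit held dentate markers. In those fits the log2 fold change was -0.80 to -0.75, near the value over all libraries.

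**Figure D1:**
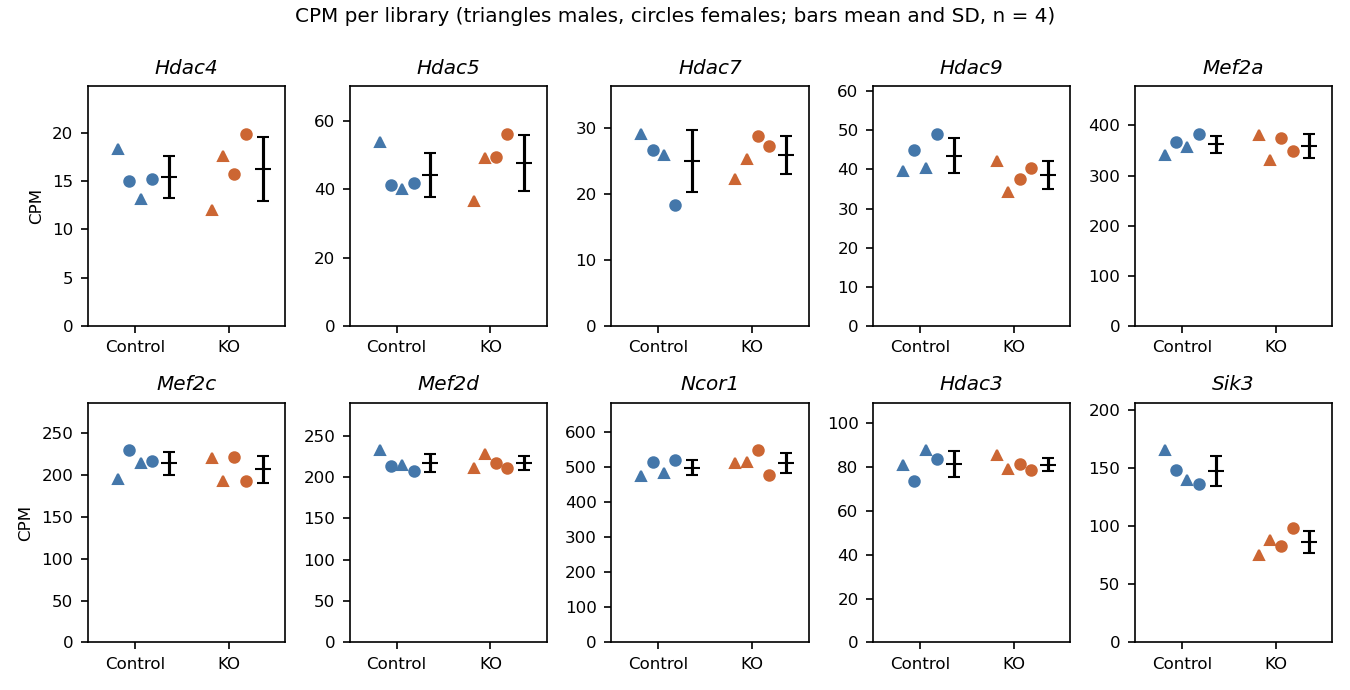
CPM (y axis, from 0) of the 9 genes and of Sik3 in every library, by group; triangles are males, circles females, and the black bars show mean and SD (n = 4). Control and KO points overlap for each of the 9 genes, while all 4 KO points of Sik3, at 75.3 to 98.4 CPM, lie below the lowest control.

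None of the 9 genes passed the test for the guide. The edgeR test called 0 of 9, 0 of 9 had an unadjusted p under 0.05, and DESeq2 and limma voom also called 0. Among all tested genes 0.0135% were called by edgeR and 2.81% had an unadjusted p under 0.05. KO and Control libraries overlapped for all 9 genes, while they did not overlap for 1.74% of all genes. The log2 fold change was above 0 for 5 of the 9 and below 0 for 4, with a median of 0.0030, against a median of 0.0036 over all tested genes. The smallest unadjusted p was that of Hdac9 (0.0561, edgeR), and the adjusted p was 0.9999 for each of the 9.

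Hdac4 encodes the class IIa deacetylase that is best known in forebrain neurons as a repressor of synaptic genes. It lies on chromosome 1, 91928779 to 92195699, minus strand, on GRCm38. It had the lowest level of the 9, at 18.3, 15.01, 13.1 and 15.2 CPM in Control 1 to 4 and 11.97, 17.5, 15.7 and 19.9 CPM in KO 1 to 4. The lowest and the highest library were both KO mice, so the KO values enclosed those of the controls. Its log2 fold change was 0.08 ± 0.15 (SE), with a 95% interval from -0.24 to 0.40.

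Hdac5, the paralog that moves between nucleus and cytoplasm with neuronal activity, lies on chromosome 11, 102194432 to 102230166. It was at 53.9, 41.2, 40.2 and 41.7 CPM in Control 1 to 4 and at 36.5, 49.2, 49.4 and 56.2 CPM in KO 1 to 4. Control 1 stood above the other controls, KO 1 was the lowest of all libraries and KO 4 the highest. The log2 fold change was 0.11 ± 0.13 (SE), with a 95% interval from -0.17 to 0.39. Leaving out each library moved it between 0.024, without KO 4, and 0.24, without Control 1 (edgeR, unadjusted p = 0.0345) or without KO 1 (unadjusted p = 0.0340). Small p-values were more frequent over all genes in these fits. An unadjusted p under 0.05 was reached by 1336 of 14961 genes without Control 1 and by 1634 of 14980 without KO 1. Over all libraries it was reached by 416 of 14788. Hdac5 was called in none of the fits that left out a library.

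Hdac7 (chromosome 15, 97792664 to 97844502) encodes the class IIa enzyme known for its roles in endothelial cells and thymocytes. It was at 29.0, 26.6, 25.9 and 18.2 CPM in Control 1 to 4 and at 22.2, 25.2, 28.8 and 27.2 CPM in KO 1 to 4. Control 4 was the lowest library, and the other controls lay within or just above the KO range. The log2 fold change was 0.06 ± 0.13 (SE), with a 95% interval from -0.23 to 0.35. It was -0.094 without Control 4 and -0.0098 without KO 3. Summed endothelial and pericyte markers were at 341 to 360 CPM in control libraries and 358 to 401 in KO libraries, and their part in Hdac7 was not tested.

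Hdac9 (chromosome 12, 34047580 to 34917095) encodes a class IIa protein that is also made as a short form without the deacetylase domain. Gene counts do not separate the forms. It was at 39.6, 45.0, 40.4 and 49.0 CPM in Control 1 to 4 and at 42.2, 34.2, 37.6 and 40.3 CPM in KO 1 to 4. KO 2 and KO 3 lay below every control, and KO 1 and KO 4 lay among the controls. Its log2 fold change, -0.17 ± 0.08 (SE), was the lowest of the 9, with a 95% interval from -0.35 to 0.0052 (edgeR, adjusted p = 0.9999). It stayed between -0.26 and -0.13 in all 17 alternatives, with adjusted p from 0.379 upward.

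The MEF2 genes varied much less. Mef2a (chromosome 7, 67231163 to 67372858), which has been tied to dendrite and synapse differentiation, was at 342, 367, 357 and 383 CPM in Control 1 to 4 and at 381, 331, 376 and 349 CPM in KO 1 to 4. The KO range enclosed every control but Control 4, the highest library, and the log2 fold change was -0.010 ± 0.06 (SE), with a 95% interval from -0.14 to 0.12.

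Mef2c (chromosome 13, 83504034 to 83667080, plus strand) is the MEF2 gene tied to cortical neuron development and is also expressed in microglia. It was at 195, 229, 215 and 216 CPM in Control 1 to 4 and at 220, 193, 222 and 193 CPM in KO 1 to 4. In each group the highest library was a female, and the lowest libraries were KO 4, where microglia markers were highest, and KO 2. The log2 fold change was -0.05 ± 0.07 (SE), with a 95% interval from -0.19 to 0.10, and it was 0.0025 without KO 4.

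Mef2d (chromosome 3, 88142372 to 88172086, plus strand), a broadly expressed MEF2 gene, was at 232, 213, 215 and 207 CPM in Control 1 to 4 and at 212, 228, 218 and 211 CPM in KO 1 to 4. Of the 9 genes it was the most even, with the highest library at 1.12 times the lowest. Its log2 fold change was 0.0030 ± 0.05 (SE), with a 95% interval from -0.11 to 0.12, that is from -7.48% to 8.54%. The remaining MEF2 gene, Mef2b, had 0 counts in all 8 libraries, which allows up to 0.161 to 0.221 CPM at 3 counts per library, for counting error only.

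The corepressor pair was level as well. Ncor1 (chromosome 11, 62316426 to 62458541), the scaffold that activates HDAC3, was at 475, 512, 482 and 519 CPM in Control 1 to 4 and at 510, 513, 546 and 476 CPM in KO 1 to 4, with the highest value in KO 3 and the others within the control range. Its log2 fold change was 0.04 ± 0.06 (SE), with a 95% interval from -0.08 to 0.16. Hdac3, the catalytic class I deacetylase of the complex, was at 81.0, 73.5, 87.7 and 83.8 CPM in Control 1 to 4 and at 85.6, 79.3, 81.3 and 78.9 CPM in KO 1 to 4, so that all KO values lay between the lowest and the highest control. The log2 fold change was -0.0030 ± 0.06 (SE), with a 95% interval from -0.14 to 0.14. Exons of Hdac7, Mef2a and Ncor1 overlap a counted gene on the other strand by 29, 302 and 82 bases, with Slc48a1, Lysmd4 and Pigl, and Ncor1 also overlaps Ttc19 by 1 base. Wider overlaps are with genes on the other strand that have no row in the counts. Hdac4 shares 3536 exon bases with Gm26720, and Mef2d shares 531 with 1700113A16Rik. The strand setting of the counting is not stated in the sources used here, so reads in those stretches are uncertain.

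Levels of different genes were compared only after division by length, as CPM per kilobase of merged exons over the 8 libraries. Ncor1 stood at 39.3 ± 1.93 CPM per kilobase (SD, n = 8 libraries), Mef2d at 36.3 ± 1.49, Mef2a at 24.6 ± 1.31, Hdac3 at 20.1 ± 1.09 and Mef2c at 13.4 ± 0.92. The class IIa genes came last: Hdac5 was at 5.24 ± 0.81, Hdac7 at 3.76 ± 0.53, Hdac9 at 2.80 ± 0.31 and Hdac4 at 1.001 ± 0.17 CPM per kilobase. Ncor1 and Mef2d overlapped in their library ranges, as did Hdac5 with Hdac7 and Hdac7 with Hdac9, and the other neighbours did not. Merged exons add up all isoforms and so lower the value of genes with many of them. Per kilobase of the longest transcript Mef2a came first, at 65.1 ± 3.48, with a range that overlapped Ncor1 at 55.8 ± 2.74, ahead of Mef2d at 40.2 ± 1.65. With that length Mef2c, at 33.5 ± 2.31, was above Hdac3, at 22.7 ± 1.23, and Hdac9 and Hdac7 changed places but overlapped. Under both lengths each of the 5 partner and MEF2 genes was above each class IIa gene in every library, and Hdac4 was the lowest.

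**Figure D2:**
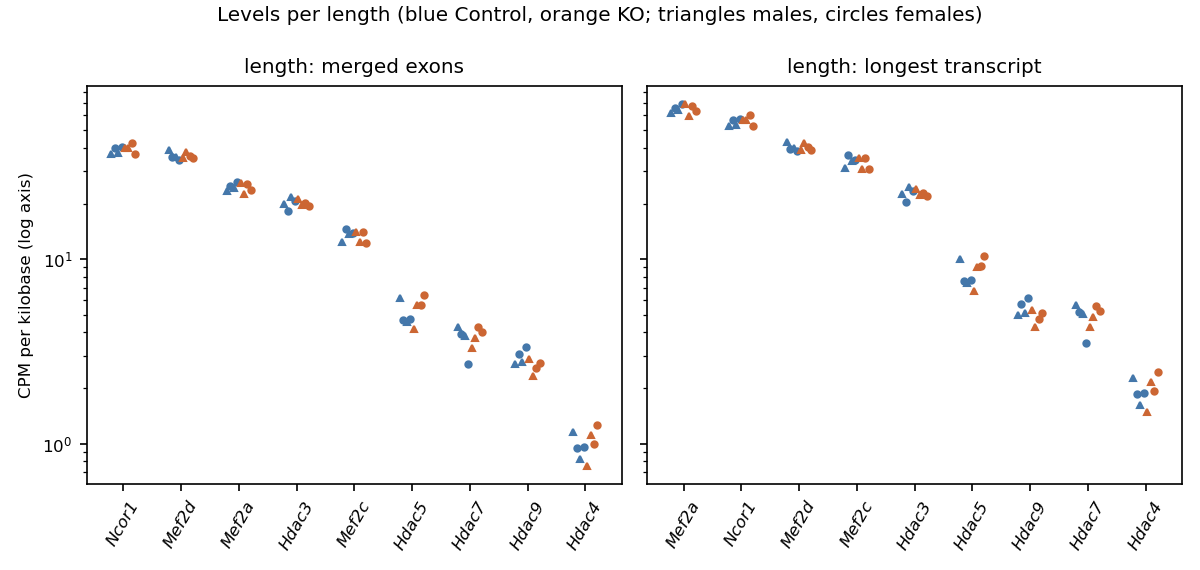
CPM per kilobase (log axis) of the 9 genes in each of the 8 libraries, ordered by mean level, with merged exon length at left and the longest transcript at right; blue is Control, orange KO, triangles males and circles females. The 4 class IIa genes lie at the right end of both panels, below 11 CPM per kilobase, and Mef2c lies higher against Hdac3 when the longest transcript is used.

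Summed per kilobase of merged exons, the 4 class IIa genes came to 12.7 ± 1.14 (SD, n = 4) with the control guide and 12.9 ± 1.41 (n = 4) with the SIK3 guide. The 3 MEF2 genes came to 74.5 ± 0.52 in controls and 73.9 ± 2.20 in KO mice. Hdac5 made up 39.7% ± 2.60 of the class IIa sum in controls and 41.9% ± 3.12 in KO mice. Hdac9 made up 23.6% ± 3.95 and 20.6% ± 3.60. Within the MEF2 sum Mef2d held 48.6% ± 2.48 and 49.1% ± 2.35, Mef2a 33.1% ± 1.57 and 33.1% ± 1.56, and Mef2c 18.3% ± 1.15 and 17.8% ± 0.90. The ratio of the class IIa sum to the MEF2 sum was 0.158 to 0.192 in controls and 0.147 to 0.202 in KO libraries, so that the KO range enclosed the control range. Per kilobase of the longest transcript Mef2a, at 65.1, was above Mef2d, at 40.2. The sums, shares and ratio thus depend on the length used, and they were not tested.

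Within each sex 2 mice stood against 2, with the spread shared over all 8 libraries, and no gene of the 9 was called by edgeR in either sex, where 0.0406% of all genes were called in females and 0% in males. In females Hdac5 was 0.35 ± 0.15 higher in KO mice on the log2 scale (SE; edgeR, unadjusted p = 0.0409, adjusted p = 0.661) and Hdac9 was at -0.27 ± 0.11 (unadjusted p = 0.0299, adjusted p = 0.661). At that unadjusted threshold 5.21% of all genes were higher and 1.9% lower in KO females, 7.11% in all, and 1.83% in males, where 0 of the 9 reached it. In males these 2 genes were at -0.14 ± 0.16 and -0.07 ± 0.11. Hdac7 was at 0.32 ± 0.16 in females and -0.21 ± 0.16 in males, and Hdac4 at 0.24 ± 0.20 and -0.10 ± 0.20. Single libraries moved the female values: Hdac7 was at 0.62 without Control 2 and 0.07 without Control 4, and Hdac4 at 0.40 without KO 3 and 0.05 without KO 4. The MEF2 genes, Ncor1 and Hdac3 lay between -0.10 and 0.03 in females and between -0.03 and 0.10 in males.

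The difference of the guide effect between the sexes was tested itself, as an interaction. It called 0 of the 9 genes in edgeR, DESeq2 and limma voom, and 0% of all genes in edgeR. Hdac5, with a difference of 0.49 ± 0.22 (SE; edgeR, unadjusted p = 0.0454, adjusted p = 0.765), and Hdac7, with 0.53 ± 0.22 (unadjusted p = 0.0350, adjusted p = 0.765), were the 2 of 9 with an unadjusted p under 0.05, both as larger in females. Among all genes 5.42% reached that threshold and 3.46% did so as larger in females. The difference for Hdac5 was 0.27 without Control 1, 0.29 without KO 1, 0.66 without Control 3 and 0.71 without KO 2. For Hdac7 it was 0.29 without Control 4 and 0.83 without Control 2. Between females and males, over both guides, edgeR called 0 of the 9 genes and 0.0609% of all genes. At an unadjusted p under 0.05 there were 0 of the 9 and 6.05% of all genes, and DESeq2 and limma voom called 0 of the 9. Hdac9 had the widest difference, 0.13 ± 0.08 higher in females.

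**Figure D3:**
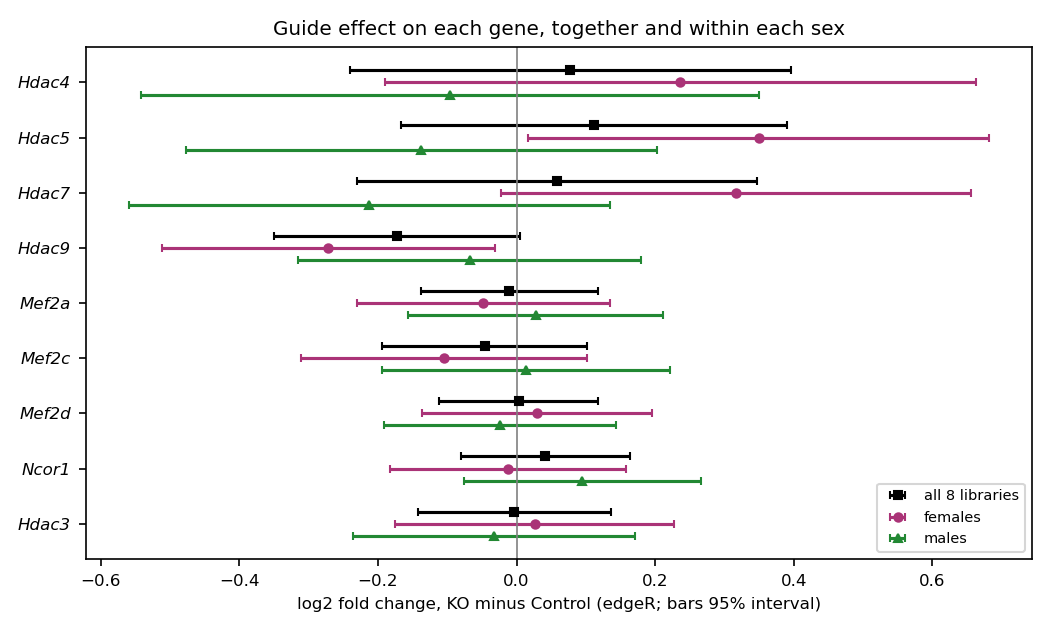
Log2 fold change of KO minus Control (x axis) with its 95% interval from edgeR for each of the 9 genes, over all 8 libraries (black squares), in females (circles) and in males (triangles). Intervals of Hdac4, Hdac5 and Hdac7 are the widest. Female and male points lie on opposite sides of 0 for every gene but Hdac9, and they are furthest apart for Hdac7. Intervals of Mef2d, Ncor1, Mef2a and Hdac3 stay within 0.17 of 0 when all libraries are used.

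The genes fell into a variable and an even set. The SD of log2 CPM over the 8 libraries was 0.24 for Hdac4, 0.22 for Hdac5, 0.22 for Hdac7 and 0.16 for Hdac9, higher than in 95.1%, 93.1%, 93.0% and 79.9% of the genes with a mean of at least 10 CPM. It was 0.06 to 0.10 for the MEF2 genes, Ncor1 and Hdac3, higher than in 7.93% (Mef2d) to 43.2% (Mef2c) of genes. Raw counts per library were 178 to 351 for Hdac4, 543 to 993 for Hdac5 and 6546 to 10124 for Ncor1. Counting error is larger at lower counts, and its part in these spreads was not tested. The genes compared were not matched for level.

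Hdac4 and Hdac5 moved with a property of whole libraries. The GC slope of a library is the change in log2 CPM for each 10 percentage points of transcript GC content, over 14641 genes. It was 0.15, -0.054, -0.098 and -0.13 in Control 1 to 4 and -0.17, 0.096, 0.030 and 0.17 in KO 1 to 4, with both signs in each group. Among females both KO libraries had positive slopes and both controls negative ones, so that within females the slope and the guide cannot be told apart. Hdac5 transcripts have a GC content of 60.04%, above 96.7% of tested genes, and Hdac7 transcripts 59.7%, above 95.9%. Relative to its mean over the libraries, Hdac5 was at 0.24, -0.15, -0.18 and -0.13 log2 units in Control 1 to 4 and at -0.32, 0.11, 0.12 and 0.30 in KO 1 to 4. The 4 libraries with a positive slope were thus the 4 with Hdac5 above its mean. Hdac4 was above its mean in the same 4 libraries, though by only 0.005 log2 units in KO 3. Its GC content of 52.6% is above that of 64.3% of tested genes, so it is not among the most GC-rich. Mef2a and Mef2c, at 42.7% each, were below their means in Control 1, KO 2 and KO 4, the 3 libraries with the steepest positive slopes. GC-rich genes did not all follow the slope. Hdac7 was above its mean in Control 2 (0.08) and Control 3 (0.04), where the slope was negative. Mef2d, with a GC content of 57.01%, was at -0.04 in KO 4, where the slope was most positive. Mean log2 CPM of microglia markers, relative to the control mean, was 0.11 to 0.54 in the 4 libraries with a positive slope. In the others it was -0.17 to 0.016. For astrocyte markers the ranges were 0.038 to 0.16 and -0.046 to 0.0040. Not every list followed: oligodendrocyte markers were at -0.53 in KO 2 and -0.40 in KO 3. The part of cell content in the slope was not tested.

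With the slope of each library added as a covariate, an alternative chosen after seeing the data and computed from the same counts, the SE of the guide effect went from 0.13 to 0.05 for Hdac5, from 0.15 to 0.08 for Hdac4 and from 0.06 to 0.03 for Mef2a. Over all tested genes the median SE went from 0.102 to 0.0808. The guide effect was then 0.0029 for Hdac5, with a 95% interval from -0.11 to 0.12, and -0.05 for Hdac4, from -0.22 to 0.12. For Mef2a the interval ran from -0.05 to 0.09, for Mef2c from -0.10 to 0.08 and for Mef2d from -0.09 to 0.06. Hdac9 was at -0.14 ± 0.06 (SE; edgeR, unadjusted p = 0.0478, adjusted p = 0.959), with a GC content of 47.4%. In this fit 759 of 14788 genes had an unadjusted p under 0.05 for the guide, against 416 without the slope. The sex difference of the guide effect was 0.09 ± 0.12 for Hdac5 (edgeR, unadjusted p = 0.471) and 0.35 ± 0.23 for Hdac7 (unadjusted p = 0.148), and the female value of Hdac4 was -0.15. Within females the slope and the guide cannot be told apart, so these values cannot decide whether the guide effect differed between the sexes. Sik3 was at -0.84 ± 0.04 in this fit.

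**Figure D4:**
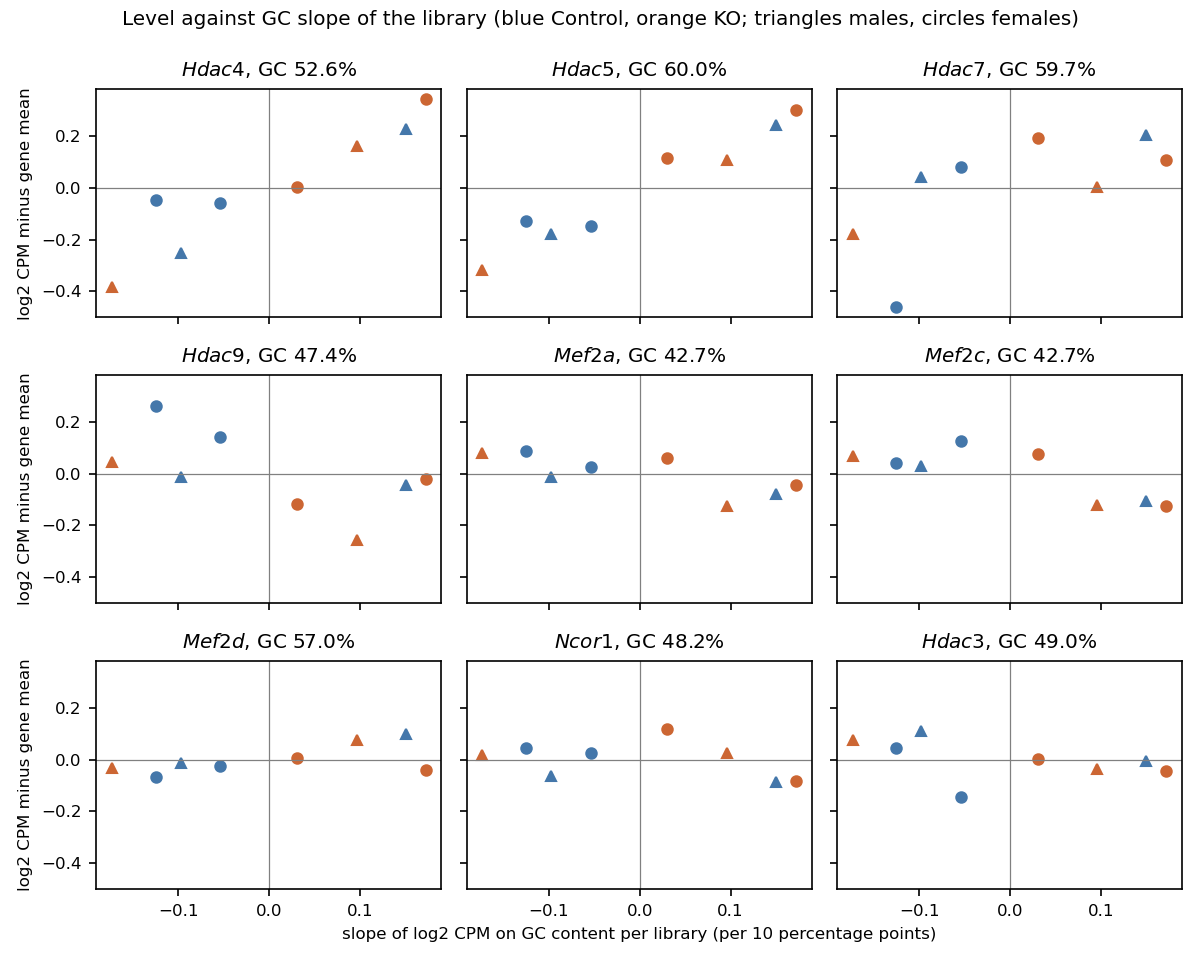
Log2 CPM minus the gene's mean (y axis) against the GC slope of the library (x axis), for the 9 genes; each point is 1 library, blue Control, orange KO, triangles males, circles females. Points of Hdac4 and Hdac5 climb from lower left to upper right, from -0.32 in KO 1 to 0.30 in KO 4 for Hdac5, while those of Mef2d stay within 0.10 of 0.

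For each of the 9 genes the tested gene with the most similar profile was found, as the smallest root mean square (RMS) difference of mean-centred log2 CPM over 8 libraries among 9201 genes of at least 10 CPM. Hdac5 was nearest to Setd1b, a histone methyltransferase gene with a GC content of 59.1% (RMS 0.027), and Hdac4 to Aes (RMS 0.035, GC 59.1%). Hdac9 was nearest to Fmn1 (RMS 0.047, GC 47.4%), and Hdac7 to Tarbp2 at a wider RMS of 0.091. The profile nearest to Mef2a was that of Setd5 (RMS 0.022), to Mef2c that of Rbm39 (0.023), to Mef2d that of Galnt17 (0.021), to Ncor1 that of Tanc2 (0.015) and to Hdac3 that of Naa35 (0.026). For genes that hardly vary, such as Mef2d and Ncor1, a small RMS says little more than that both are even.

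The kinases that phosphorylate class IIa deacetylases, with their upstream kinases, were a list of 21 genes. Sik3 was the only gene of the 21 that edgeR called, and the other 20 had unadjusted p above 0.05. Over all tested genes 0.0135% were called and 2.81% had an unadjusted p under 0.05. Camkk2, an upstream kinase of calcium/calmodulin signalling, had the next smallest p, with 133 ± 8.68 CPM (SD, n = 4) under the control guide and 123 ± 4.59 CPM (n = 4) under the SIK3 guide, or -0.11 ± 0.06 on the log2 scale. The other SIK genes were near their control levels: Sik2 was at 22.4 ± 1.14 and 22.5 ± 2.03 CPM, and Sik1 at 5.25 ± 1.26 and 5.40 ± 2.06 CPM. Camk4, the nuclear calcium/calmodulin kinase, was at 296 ± 22.2 and 284 ± 28.4 CPM. The median of the list was 0.018.

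Beside Ncor1 and Hdac3, the list of corepressor complex genes and recruiters had 7 members. Of these 0 were called by edgeR and 0 had an unadjusted p under 0.05. The shares over all tested genes were 0.0135% and 2.81%, so a count of 0 in so short a list says little about it. The WD40 subunit gene Tbl1xr1 was at -0.08 ± 0.06 and the repressor gene Bcl6 at 0.08 ± 0.06. Of 6 deacetylases outside the 9 genes, 0 were called and 0 had an unadjusted p under 0.05 (edgeR). Class I Hdac1 had 31.5 ± 4.39 CPM under the control guide and 28.3 ± 3.14 CPM under the SIK3 guide, and Hdac10, of class IIb, at 10.5 ± 1.51 and 11.5 ± 0.42 CPM.

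Phosphatases that act on class IIa deacetylases or MEF2, with the 14-3-3 genes, had 16 tested members of 17. The edgeR test called 0, and 0 had an unadjusted p under 0.05, where the shares over all tested genes were 0.0135% and 2.81%. The log2 fold change was below 0 for 14 of the 16, against 7174 of 14788 genes tested. All 16 were within 0.12 of 0, with a median of -0.041 against 0.0036 over all genes. The list median was -0.080 within females, where the GC slope and the guide cannot be told apart, and 0.0022 within males. The list was not tested as a set. Ppp3r1, the regulatory subunit of calcineurin, had 1278 ± 84.6 CPM under the control guide and 1183 ± 142 CPM under the SIK3 guide, and the phosphatase gene Ppp1cc at 183 ± 10.9 and 171 ± 7.72 CPM. Cofactors, kinases and regulators of MEF2 had 15 tested members of 16, with 0 called and 0 at an unadjusted p under 0.05 (edgeR) and a median of 0.019. Cdk5, a kinase that phosphorylates MEF2, was at 0.11 ± 0.07, and Foxp2 had 0.87 ± 0.09 CPM in control libraries and 0.66 ± 0.17 in KO libraries, on at most 15 counts per library.

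Genes described as MEF2 targets in neurons were listed from general knowledge, and 22 of 22 were tested. Whether these genes report MEF2 activity in this tissue was not tested. The edgeR test called 0 of the 22, and 0.0135% of all tested genes. At an unadjusted p under 0.05 there was 1 lower, where 1.03% of all genes were lower. It was Kcna1, which encodes a voltage-gated potassium channel subunit, at 347 ± 9.73 CPM under the control guide and 317 ± 18.7 CPM under the SIK3 guide, or -0.13 ± 0.06 on the log2 scale (edgeR, unadjusted p = 0.0393, adjusted p = 0.9999). Lgi1, a secreted synaptic protein gene, was at -0.12 ± 0.06. The activity-dependent targets had wide spreads: Arc was at 84.9 ± 19.0 and 77.5 ± 45.2 CPM, and Nr4a1 at 36.4 ± 6.42 and 40.0 ± 17.6 CPM. Bdnf was at 57.4 ± 6.32 and 57.1 ± 1.94 CPM, and Pcdh10, which links MEF2 to synapse elimination, at 97.4 ± 8.68 and 97.3 ± 7.94 CPM. Log2 fold changes were above 0 for 10 and below 0 for 12 of the 22, with a median of -0.0036.

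**Figure D5:**
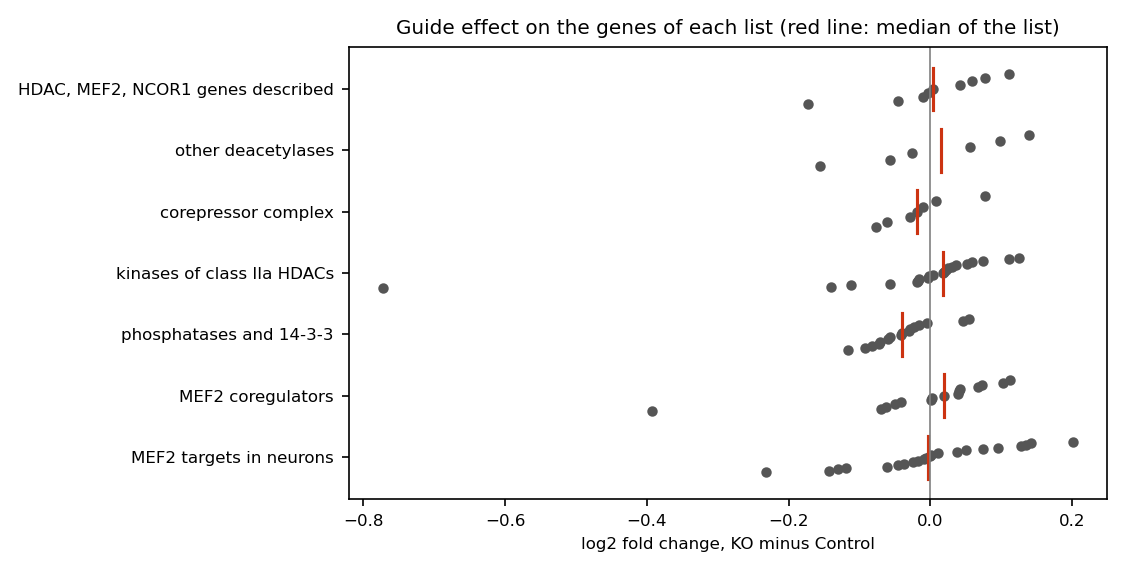
Log2 fold change of KO minus Control (x axis) for each tested gene of the 7 lists, with a red line at the median of each list. All medians lie within 0.05 of 0, and the lone point near -0.77 is Sik3.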

How the data were processed

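Poly(A) RNA libraries (TruSeq stranded mRNA kit, per the labels' protocols) from 8 mice were analysed. For every mouse the authors deposited a file of unnormalized counts over 37315 Ensembl identifiers, of which 0 name no gene. The tools listed in the submitters' processing notes, without their roles, are HTSeq 2.0.1, TopHat2 2.1.1 and Trimmomatic 0.33, with the build mm10. In another table, 8 columns were left unused. Symbols, exons, GC content and positions came from GENCODE M21 (GRCm38), which matched 35449 identifiers. The cause of the GC slope of the libraries was not tested.

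The test on counts was the quasi-likelihood F test of edgeR 4.0.16 (R 4.3.3, TMM, filterByExpr with minimum count 10 and minimum total 15, sex as covariate, 5 residual degrees of freedom), with Benjamini-Hochberg adjustment over 14788 genes and a threshold of 0.05. The interaction and the effects within each sex came from a fit of 4 sex-by-guide groups. SE is the log2 fold change divided by the square root of F, and intervals cover 95%. The procedure was tested on simulated counts. Alternatives were RLE and upper quartile scaling, no filter, a mean CPM of at least 1, DESeq2 1.42.0, limma voom 3.58.1, no covariate, dentate markers or the GC slope as covariates, and leaving out each library.

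Members and lists were chosen with earlier results of these data known. Named were the 9 genes, Sik3, the nearest profile to each of the 9, and from each list the called genes and the 2 with the smallest p. Chosen after their values were seen, for their roles, were Mef2b, Sik1, Sik2, Camk4, Arc, Nr4a1, Bdnf and Pcdh10. A gene of the corepressor complex list is not reported here.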

Additional observations from a re-analysis of the deposited data

Results flagged for a closer look

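Of 21 genes looked at in groups of 4 libraries, 3 of 42 groups had 1 library far from the other 3 by Dixon's ratio, and chance sets apart about 1 in 20 groups. Hdac5 was at 53.9 CPM in Control 1 and at 40.2 to 41.7 CPM in the other controls. Control 1 was also the only control with a positive GC slope, 0.15 per 10 percentage points, and the part of the slope in this value was not tested. Hdac10 was at 10.9 CPM in KO 3 and at 11.7 to 11.8 CPM in the other KO libraries. Cdk5 was at 57.0 CPM in KO 2 and at 49.2 to 49.8 CPM in the other KO libraries.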

How the results depend on the processing

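In all 17 alternatives 0 of the 9 genes were called for the guide, and in every alternative run for them 0 were called for sex or the interaction. Counts over all genes moved more. Without a filter on low counts there were 84 calls for the guide, 100 for the interaction, 275 within females, 20 within males and 112 for sex. DESeq2 gave 2 for the interaction, 18 within females, 3 within males and 19 for sex. With dentate markers as a covariate 0 genes were called for the guide, and with the GC slope 2 were called within males and 42 for sex. Leaving out each library gave 0 to 2 calls for the guide, 0 to 1 for the interaction, 0 to 21 within females, 0 to 1 within males and 7 to 13 for sex. The causes were not tested.

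Signs of small, uncalled log2 fold changes turned in 21 of 153 values. Leaving out each library gave -0.033 to 0.205 for Hdac4, -0.094 to 0.147 for Hdac7, -0.061 to 0.019 for Mef2a, -0.097 to 0.0025 for Mef2c, -0.017 to 0.029 for Mef2d and -0.046 to 0.030 for Hdac3. With the GC slope the values were -0.049 for Hdac4, -0.0088 for Hdac7, 0.019 for Mef2a, -0.016 for Mef2d and 0.016 for Hdac3. Mef2d was at -0.00099 with RLE scaling and at -0.00098 by DESeq2. No paired analysis was possible because the labels give no replicate numbers. Where a fit left 1 mouse of a sex and guide, that mouse was assumed to vary like the others.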
